A study of Mus musculus with 12 samples.

Results

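Mouse kidney RNA of late gestation was compared with that of early gestation on a Notch-pathway oligonucleotide array. The late group held 4 arrays, 2 of kidney at embryonic day 16 (E16) and 2 at E18, and the early group held 6 arrays, 3 at E12 and 3 at E13. Arrays were assigned by stage from their titles, and these 10 of the 12 arrays of the series were used. The remaining 2 arrays, of E14 kidney, were left out of the comparison. No strain, genotype or treatment is given for either period. Since the labels describe repeat arrays of a stage as technical replicates, p-values over arrays measure the spread between arrays and not between embryos. The labels do not tell whether RNA was pooled over embryos.

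Notch signalling passes between neighbouring cells. A Delta-like or Jagged ligand on one cell binds a Notch receptor on another, ADAM proteases and gamma-secretase cut the receptor, and the freed intracellular part joins Rbpj in the nucleus to switch on targets such as the Hes and Hey repressors. In the kidney the pathway is known for patterning the segments of the young nephron, in particular the proximal tubule and the podocyte. Early kidney consists mostly of a branching ureteric bud surrounded by mesenchyme, whereas late fetal kidney also holds many differentiating nephrons beside those still forming.

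Each membrane carried 120 gene spots for 118 genes, and the 105 tested were those above background throughout at least 1 of the 4 stages. Median gene signal was 6249 to 9617 on the late arrays and 4318.5 to 9314 on the early arrays, and the mean of the negative-control spots was 908 to 3494.83 on the late arrays and 772.5 to 2984.83 on the early arrays. Per array, 94 to 112 genes were above background. None of 7 markers of kidney structures that were looked for (Six2, Pax2, Wt1, Nphs1, Umod, Ret and Cdh1) was on the array, so the labelled tissue could not be checked against them. Wnt11, a ligand made at the tips of the ureteric bud, was above background on 4 of 4 late and 6 of 6 early arrays. Shh, from the ureteric epithelium, was above background on 0 of 4 late and 2 of 6 early arrays. Most genes on the array were above background, so these genes do not identify the tissue. Levels below are log2 signals after background correction and quantile normalization, and a difference is the mean of the 2 late stages minus the mean of the 2 early stages.

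The 3 genes with a limma adjusted p under 0.05 were lower in late kidney. Krt1 and Lor, both genes of differentiating epidermis, and Il17b, which encodes an interleukin-17 family cytokine, fell in late kidney. Krt1 was 1.65-fold and Lor 2.69-fold lower. Il17b was above background on 1 of 4 late arrays, so its fold is a bound, at least 3.86-fold lower at E18 than in early kidney. This bound holds only for the background correction and normalization used here, and it was not computed under others. These were 3 of the 105 genes tested (2.86%) at a limma adjusted p under 0.05, with 0 higher and 3 lower, and 20 genes (19%) had an unadjusted p under 0.05, 8 of them higher and 12 lower. With the stage in place of the array as the unit, 2 late stages against 2 early ones, Lor and Il17b were the 2 genes past the limma threshold. They were 1.9% of those tested, beside 20, or 19%, at an unadjusted p under 0.05, and Krt1 was not past it (adjusted p = 0.125). That fit had only 2 residual and 2.16 prior degrees of freedom. Its SE was 0.15 for Lor and 0.20 for Il17b, below the 0.25 and 0.47 of the fit over arrays. Those p-values thus rest on how close the 2 stage means of each period lay. In whole-organ RNA, fewer cells of a type and less RNA per cell cannot be told apart.

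**Figure D1:**
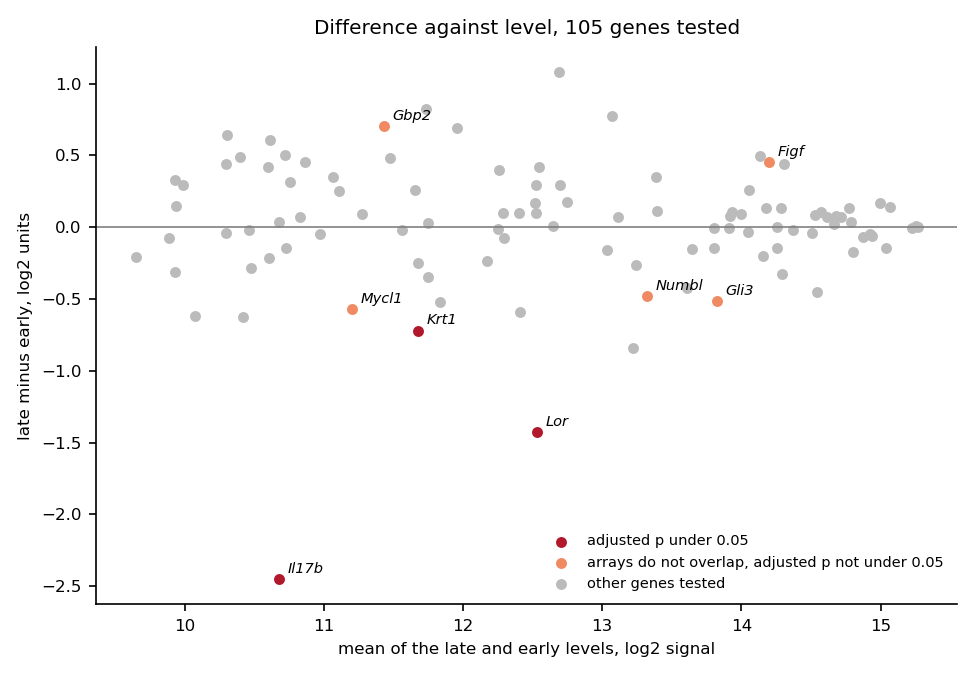
Difference between late and early kidney (vertical axis, log2 units) against the mean of both levels (horizontal axis, log2 signal) for the 105 genes tested, 1 point per gene. The 3 genes past the threshold, Krt1, Lor and Il17b, all lie below 0, and the 5 further genes whose arrays did not overlap lie on both sides of it.

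Krt1, a keratin of the layers above the basal epidermis, had log2 signals of 10.98 and 11.32 on the E16 arrays and 11.45 and 11.52 on the E18 arrays, against a lowest value of 11.86, a median of 12.05 and a highest value of 12.23 on the 6 early arrays. All late arrays lay below all early arrays, and the E16 arrays were the lowest. The mean was 11.32 ± 0.24 (SD, n = 4) in late kidney and 12.04 ± 0.16 (SD, n = 6) in early kidney, a difference of -0.72 (SE 0.10, limma adjusted p = 0.0142). The difference ran from -0.79 to -0.65 over the fits that each left out 1 array, and the call was lost without E12 replicate 1 (-0.70, adjusted p = 0.0507), E18 replicate 1 (-0.68, adjusted p = 0.0833) or E18 replicate 2 (-0.70, adjusted p = 0.109). Under other scalings it was -0.80 with array medians, -0.49 with housekeeping scaling, -0.44 with no normalization and -0.41 in the deposited ratios, none of them past the threshold. With a whole stage left out it was -0.66 without E12 (adjusted p = 0.169) and -0.86 without E13 (adjusted p = 0.0267). It was -0.54 without E16 (adjusted p = 0.0558) and -0.80 without E18 (adjusted p = 0.0887).

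Lor encodes loricrin, a main protein of the cornified envelope of the epidermis. It had log2 signals of 11.21 and 12.38 on the E16 arrays and 11.97 and 11.73 on the E18 arrays, against a lowest value of 12.95, a median of 13.13 and a highest value of 13.69 on the early arrays. The 2 periods did not overlap, although the 2 E16 arrays lay farther apart than any 2 early arrays. The mean was 11.82 ± 0.49 (SD, n = 4) in late kidney and 13.25 ± 0.32 (SD, n = 6) in early kidney, a difference of -1.43 (SE 0.25, limma adjusted p = 0.0258). Taken singly, E16 minus the early mean was -1.45 and E18 minus the early mean was -1.40. With the stage as the unit the adjusted p was 0.0329. The call was lost without E12 replicate 1 (-1.39, adjusted p = 0.0507), E12 replicate 3 (-1.36, adjusted p = 0.0684), E18 replicate 1 (-1.53, adjusted p = 0.0833) or E18 replicate 2 (-1.37, adjusted p = 0.109), and with housekeeping scaling (-1.18), no normalization (-1.13) or the deposited ratios (-1.08).

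Il17b had log2 signals of 9.30 and 9.99 on the E16 arrays and 9.06 and 9.48 on the E18 arrays, against a lowest value of 10.83, a median of 11.63 and a highest value of 12.99 on the early arrays. All early arrays were above background for this gene, and of the late arrays only 1 of the 2 at E16 was. The mean was 9.46 ± 0.40 (SD, n = 4) in late kidney and 11.91 ± 0.89 (SD, n = 6) in early kidney, a difference of -2.45 (SE 0.47, limma adjusted p = 0.0319, and adjusted p = 0.0223 with the stage as the unit). Il17b was let into the test by the early stages, where it was high, and most of its late values lie in the background, so the difference and its p describe these arrays and are not independent support. The bound at E18, where neither array was above background, is given above. The difference was -4.75 when the mean of the negative controls was subtracted and -1.66 with no background correction, so its size depends on how background is removed. With a whole stage left out it was -2.32 without E12 (adjusted p = 0.169) and -2.67 without E13 (adjusted p = 0.0263). It was -2.61 without E16 (adjusted p = 0.0794) and -2.21 without E18 (adjusted p = 0.222). The call was lost without E12 replicate 1 (-2.23, adjusted p = 0.0507), E12 replicate 3 (-2.51, adjusted p = 0.0684), E16 replicate 1 (-2.26, adjusted p = 0.105), E16 replicate 2 (-2.63, adjusted p = 0.0635), E18 replicate 1 (-2.32, adjusted p = 0.14) or E18 replicate 2 (-2.53, adjusted p = 0.109), and with housekeeping scaling (-2.49, adjusted p = 0.225) or in the deposited ratios (-2.08, adjusted p = 0.2). With the 3 highest-background arrays left out (E16 replicate 1, E18 replicate 1 and E13 replicate 1) it was -1.79 (adjusted p = 0.328).

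Beside these 3, another 5 genes had late arrays that did not overlap the early arrays, which makes 8 of 105 (7.62%), 2 higher (1.9%) and 6 lower (5.71%). None of the 5 passed the limma threshold. Gli3, a transcription factor of Hedgehog signalling that acts largely as a repressor, had 13.75 and 13.51 at E16 and 13.38 and 13.64 at E18, against 13.87 to 14.40 on the early arrays (median 14.06), a difference of -0.52 (SE 0.12, limma adjusted p = 0.058). Mycl1, a member of the Myc family now named Mycl, had 11.04 and 11.12 at E16 and 10.59 and 10.94 at E18, against 11.16 to 11.86 (median 11.50), a difference of -0.57 (SE 0.15, limma adjusted p = 0.0718). Numbl, a relative of the Notch inhibitor Numb, had 12.95 and 13.38 at E16 and 13.30 and 12.72 at E18, against 13.41 to 13.69 (median 13.55), a difference of -0.48 (SE 0.15, limma adjusted p = 0.108). In Numbl and Mycl1 the gap between the highest late and the lowest early array was small beside the spread within either period.

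The other 2 genes without overlap were higher in late kidney. Figf, the lymphangiogenic growth factor now named Vegfd, had 14.62 and 14.24 at E16 and 14.34 and 14.50 at E18, against 13.59 to 14.14 on the early arrays (median 14.11), a difference of 0.45 (SE 0.14, limma adjusted p = 0.0993). Gbp2, an interferon-induced GTPase, had 11.81 and 11.65 at E16 and 11.81 and 11.86 at E18, against 10.43 to 11.45 (median 11.20), a difference of 0.70 (SE 0.21, limma adjusted p = 0.0993). The SD of Gbp2 was 0.09 among the late arrays (n = 4) and 0.41 among the early arrays (n = 6). With array medians the difference of Figf was 0.06.

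RefSeq (GRCm38.p6) gave the sequence upstream of the transcription start for 6 of these 8 genes. The 250 bases before the start were searched on both strands for TGGGAA, the core of the Rbpj site, and for TATAAA, as in a classic TATA box. They are shown for Lor, which fell, and for Figf, the 1 gene of these 6 with the Rbpj core, with the motifs found in capitals and 5′ to 3′ on the strand of the gene.
Lor, chr3:92083143-92083392, minus strand: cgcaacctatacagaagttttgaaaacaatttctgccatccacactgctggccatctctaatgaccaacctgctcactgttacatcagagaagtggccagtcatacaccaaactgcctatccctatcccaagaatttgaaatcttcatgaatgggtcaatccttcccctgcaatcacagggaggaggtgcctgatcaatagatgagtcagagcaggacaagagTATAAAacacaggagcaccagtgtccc
Figf, chrX:164373272-164373521, plus strand: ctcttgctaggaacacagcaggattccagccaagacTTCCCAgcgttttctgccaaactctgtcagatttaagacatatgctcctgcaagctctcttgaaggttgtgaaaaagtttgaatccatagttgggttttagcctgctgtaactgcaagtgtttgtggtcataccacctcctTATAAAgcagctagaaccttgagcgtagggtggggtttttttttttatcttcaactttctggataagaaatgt
In Lor the TATA box starts 27 bases before the transcription start (position -27), and no Rbpj core was found in this window. In Figf the Rbpj core lies on the opposite strand (first base at -214). The letters TATAAA also occur in Figf at -73, farther from the start than in Lor. Mycl1, whose sequence is not shown, has them at -8. The Rbpj core occurs in 21.6% of all RefSeq promoters of this length and in 19.6% of those of genes on the array, and the TATA box in 12.4% and 20.6%, so these matches are a description of the letters and not sites of binding.

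**Figure D2:**
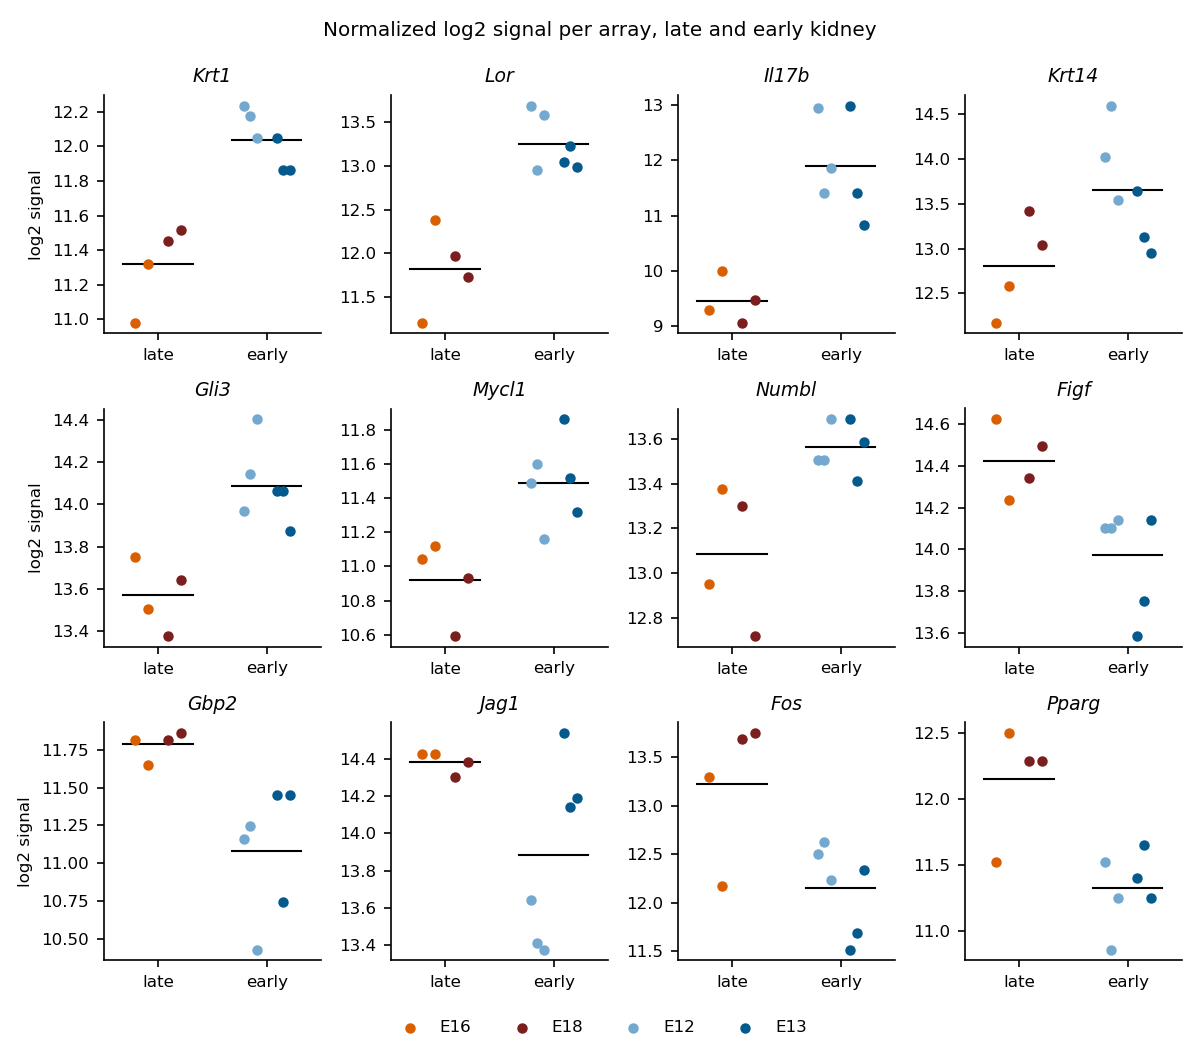
Normalized log2 signal (vertical axes, each with its own range) on each array for 12 genes, late arrays left and early arrays right, with points coloured by stage and a line at the mean of the stage means. Krt1, Lor, Il17b, Gli3, Mycl1 and Numbl have all late points below all early points, Figf and Gbp2 have them above, and the other 4 genes overlap between the periods.

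The other 4 genes shown had an unadjusted p under 0.05 but overlapped between the periods. Jag1, a ligand that activates Notch in young nephrons, had 14.43 on both E16 arrays and 14.30 and 14.38 on the E18 arrays, against 13.64, 13.41 and 13.38 at E12 and 14.54, 14.14 and 14.19 at E13. All late arrays lay above the E12 arrays and within the range of the E13 arrays, so the difference of 0.50 (SE 0.11, limma adjusted p = 0.058) came with early stages that stood apart from each other. It was 0.92 without E13 and 0.09 without E12, and 0.15 with array medians. With the stage as the unit the adjusted p of Jag1 was 0.499.

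Fos, an immediate early transcription factor, had 13.30 and 12.18 at E16 and 13.69 and 13.75 at E18, against 11.52 to 12.63 on the early arrays (median 12.29). The second E16 array alone lay within the early range, and the difference was 1.08 (SE 0.25, limma adjusted p = 0.058). Fos passed the threshold without E16 replicate 2 (1.35, adjusted p = 0.0127) or E13 replicate 3 (1.17, adjusted p = 0.042), and in 6 of 35 other settings in all. By stage, the difference was 0.62 (adjusted p = 0.659) without E18, 1.58 (adjusted p = 0.0267) without E16, 0.71 (adjusted p = 0.203) without E13 and 1.40 (adjusted p = 0.169) without E12, so its size rested largely on E18. Pparg, a nuclear receptor of lipid metabolism that was singled out after its values were seen, had 11.52 and 12.50 at E16 and 12.28 on both E18 arrays, against 10.86 to 11.65 on the early arrays (median 11.33). The first E16 array alone lay within the early range, and the difference was 0.83 (SE 0.22, limma adjusted p = 0.0718). Krt14, a basal keratin, had 12.18 and 12.58 at E16 and 13.41 and 13.04 at E18, against 12.95 to 14.59 on the early arrays (median 13.59). Its E16 arrays lay below every early array and its E18 arrays within the early range, and the difference was -0.84 (SE 0.24, limma adjusted p = 0.0908).

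**Figure D3:**
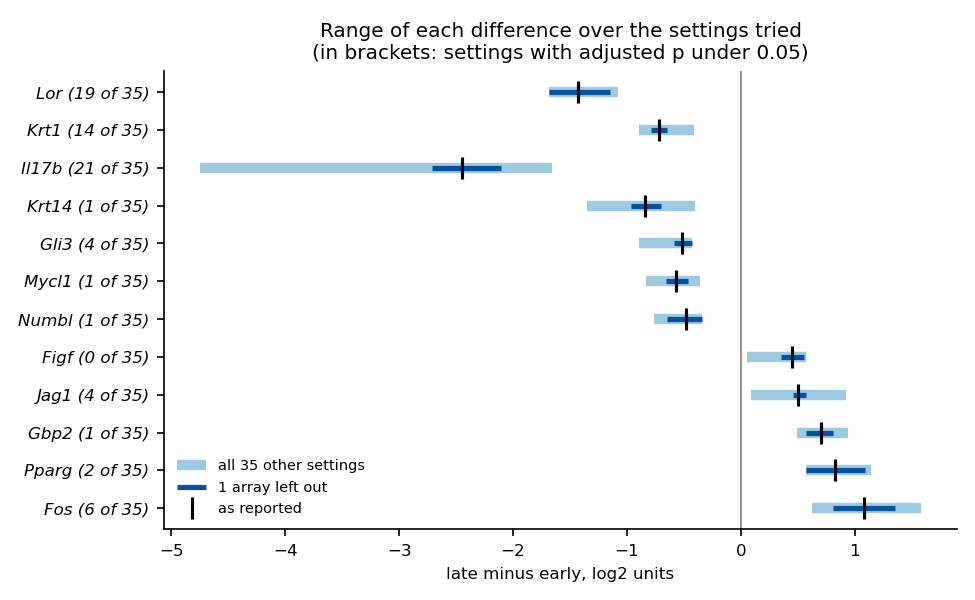
Difference between late and early kidney in log2 units (horizontal axis) for 12 genes, with a tick for the value as reported, a dark bar for the range over the 10 fits that leave out 1 array and a pale bar for the range over all 35 other settings. Every bar shown stays on 1 side of 0, while the number of settings past the threshold, in brackets, runs from 0 of 35 for Figf to 21 of 35 for Il17b.

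Of the 5 Notch ligands, 0 passed the threshold, beside 2.86% of all genes tested. There were 4 differences above 0 and 1 below, with a median of 0.33 beside 0.04 over all 105 genes. After Jag1, the other Jagged ligand, Jag2, differed by 0.33 (SE 0.34) and was above background on 2 of 4 late and 3 of 6 early arrays. Among the Delta-like ligands, Dll1 differed by 0.48 (SE 0.44), Dll4, which is best known from endothelium, by 0.25 (SE 0.31), and Dll3, which acts largely inside the signal-sending cell, by -0.16 (SE 0.30). The largest of the Dll1 values, 12.90, came from 1 E16 array, and the other 3 late arrays, at 10.88 to 11.69, lay within the early range of 10.59 to 11.97. The median of the ligands was 0.04 with array medians, and Dll1 was at -0.02 when 1 array was left out. With array medians Jag2 was at -0.20, and with no normalization and in the deposited ratios Dll3 was at up to 0.05. The late stages went opposite ways for Jag2 and Dll3. E16 minus the early mean was -0.19 for Jag2 and 0.23 for Dll3, and E18 minus the early mean was 0.85 and -0.54.

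None of the 4 Notch receptors passed the threshold, and the 4 differences were above 0 as reported (median 0.14). Notch1 had 14.30 and 14.59 at E16 and 14.62 and 14.59 at E18, against 13.51 to 14.68 on the early arrays (median 14.10). The late arrays lay in the upper part of the early range, a difference of 0.44 (SE 0.21, limma adjusted p = 0.342). Notch2, the receptor most closely tied to nephron formation in mouse, differed by 0.18 (SE 0.29), Notch4, largely endothelial, by 0.10 (SE 0.32), and Notch3, known from vascular smooth muscle, by 0.07 (SE 0.25). The late stages went opposite ways for Notch2 and Notch3. E16 minus the early mean was -0.16 for Notch2 and 0.26 for Notch3, and E18 minus the early mean was 0.51 and -0.11. The sign of Notch3 turned with array medians, to -0.09, and leaving out 1 array took Notch2 as low as -0.02, Notch3 to -0.20 and Notch4 to -0.17, while Notch1 stayed at 0.31 or more. The median of the 4 was 0.04 with array medians, 0.35 with housekeeping scaling, 0.38 in the deposited ratios and 0.40 with no normalization.

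The proteases that cut the receptor had 0 of 7 members past the threshold, with a median of 0.09. Adam10, the main sheddase of ligand-bound Notch, differed by 0.51 (SE 0.42), and Adam17 by -0.04 (SE 0.11). Of the gamma-secretase subunits, Psen2, a catalytic subunit, differed by 0.40 (SE 0.29), Aph1a by 0.09 (SE 0.16), Psenen by 0.00 (SE 0.13) and Ncstn, which takes up the substrate, by -0.05 (SE 0.10). With array medians Aph1a was at -0.25, which follows the scale: that setting put the median of all genes at -0.27, against 0.04 as reported.

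Among 12 modifiers and trafficking genes, 0 passed the threshold (median -0.02). The fringe glycosyltransferases, which add sugars that tune the choice of ligand, differed by 0.49 (SE 0.32) for Mfng, 0.45 (SE 0.43) for Rfng and -0.04 (SE 0.38) for Lfng. Mfng was above background on 4 of 4 late arrays and on 3 of 6 early arrays. Pofut1, which adds the O-fucose that the fringes extend, differed by 0.08 (SE 0.28). Numb, which removes Notch at cell division, differed by 0.10 (SE 0.18), beside -0.48 for Numbl. Of the ubiquitin ligases, Cbl differed by -0.62 (SE 0.48) and was above background on 2 of 4 late and 5 of 6 early arrays. Neurl, Dtx1, Dtx2 and Dtx3 differed by -0.08, -0.01, -0.15 and -0.07, and Sel1l, of endoplasmic reticulum quality control, by 0.13.

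The Hes and Hey genes, the family of repressors that Notch induces, had 0 of 6 past the threshold, with 3 differences above 0 and 3 below (median -0.004). Hes1, the member most widely used as a Notch readout, had 14.92 and 14.68 at E16 and 14.88 on both E18 arrays, against 14.62 to 14.81 on the early arrays (median 14.67). Of the late arrays 3 lay above and 1 within the early range, a difference of 0.13 (SE 0.09, limma adjusted p = 0.53). Hes6, which opposes Hes1, had 14.84 and 14.66 at E16 and 14.68 on both E18 arrays, against 14.81 to 14.97 (median 14.90), so that 3 late arrays lay below the early range, a difference of -0.17 (SE 0.08, limma adjusted p = 0.342). Heyl differed by 0.26 (SE 0.24) and Hes5 by 0.17 (SE 0.36), while Hey2 differed by -0.24 (SE 0.28) and Hey1 by -0.14 (SE 0.09). The late stages went opposite ways for Heyl: E16 minus the early mean was 0.68 and E18 minus the early mean was -0.17. With array medians Hes1 was at -0.28. The sign of Hey2 turned with housekeeping scaling (0.03), with no normalization (0.08) and in the deposited ratios (0.07).

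**Figure D4:**
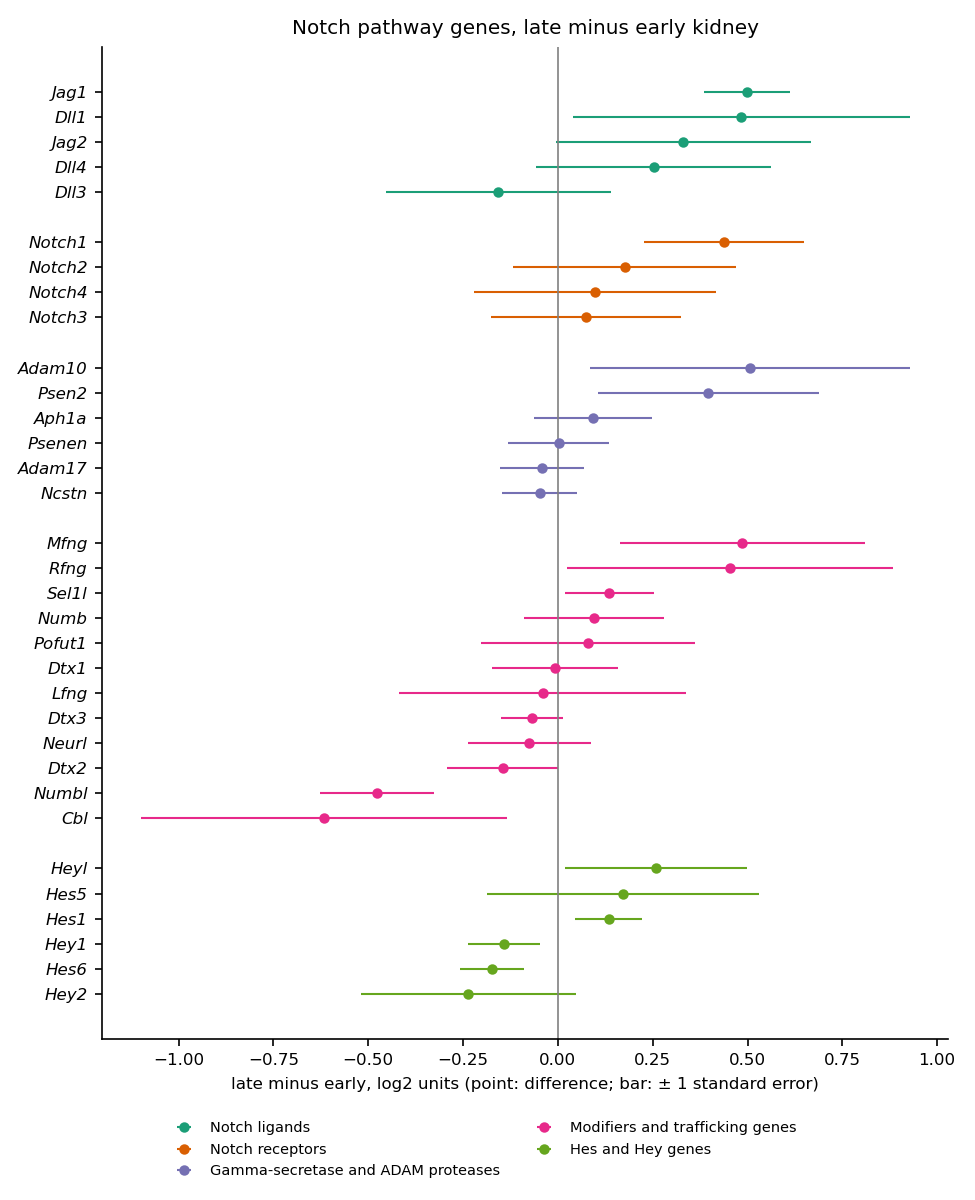
Difference between late and early kidney in log2 units (horizontal axis) for genes of the Notch pathway, grouped by role, with points for the difference and bars for ± 1 standard error. No gene shown passed the threshold, and the points run from -0.62 for Cbl to 0.51 for Adam10.

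In the nucleus, Rbpj, the DNA-binding partner of Notch, differed by 0.10 (SE 0.18), its co-activators Maml1 by 0.04 (SE 0.09) and Ep300 by 0.42 (SE 0.36), and Snw1 by -0.34 (SE 0.40). Of the 5 nuclear co-activators tested, 0 passed (median 0.04). The 6 co-repressors and feedback inhibitors also had 0 past the threshold (median -0.04). Among them hr (hairless), a corepressor of nuclear receptors, had 11.40 and 11.73 at E16 and 11.49 and 11.69 at E18, against 11.65 to 12.58 on the early arrays (median 12.14), a difference of -0.52 (SE 0.19, limma adjusted p = 0.163). Nrarp, a Notch-induced inhibitor of the pathway, differed by 0.29 (SE 0.19) and Aes, now named Tle5, by 0.07 (SE 0.09).

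Hedgehog signalling, in which Shh from the ureteric epithelium acts on surrounding mesenchyme through Ptch1 and the Gli factors, had 0 of 6 tested members past the threshold. Of the 6 differences 5 were below 0, and the median was -0.30 beside 0.04 over all genes. The 3 Gli factors each had an unadjusted p under 0.05 and were lower, beside 12 genes (11.4%) of the 105 tested. With the stage as the unit the limma adjusted p was 0.268 for Gli1, 0.349 for Gli2 and 0.125 for Gli3. Gli1, itself a target of the pathway, had 13.64 and 13.30 at E16 and 13.13 and 13.51 at E18, against 13.30 to 14.19 on the early arrays (median 13.85), a difference of -0.42 (SE 0.17, limma adjusted p = 0.201). Gli2, the main activator, had 14.40 and 14.19 at E16 and 13.78 and 14.14 at E18, against 14.30 to 14.62 (median 14.44), a difference of -0.33 (SE 0.12, limma adjusted p = 0.187). In these 2 genes the late values lay toward the lower end of the early range or below it. The sign held in 35 of 35 other settings, as it did for Gli3, but those settings reuse the same arrays. Leaving out 1 stage moved Gli1 between -0.58 and -0.26 and Gli2 between -0.50 and -0.16. Stil differed by -0.27 (SE 0.16). Shh was above background on 0 of 4 late and 2 of 6 early arrays, and Ptch1 on 0 of 4 late and 3 of 6 early arrays, so neither was tested.

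The Wnt pathway had 13 of 16 genes tested and 0 past the threshold (median 0.04). Of the Frizzled receptors, Fzd7 differed by 0.61 (SE 0.26, limma adjusted p = 0.25), Fzd6 by 0.69 (SE 0.35), Fzd8 by 0.44 (SE 0.22) and Fzd3 by -0.63 (SE 0.24, limma adjusted p = 0.187). Fzd3 was above background on 3 of 4 late and 6 of 6 early arrays. Its late arrays, at 9.38 to 10.50, overlapped the early range of 10.22 to 11.08.

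Of 8 cell cycle and immediate early genes tested, 0 passed (median -0.16). Ccne1, a G1/S cyclin, had 14.81 and 14.30 at E16 and 13.97 and 14.19 at E18, against 14.62 to 15.02 on the early arrays (median 14.72). Of the late arrays 3 lay below the early range and 1, at E16, lay within it, a difference of -0.45 (SE 0.14, limma adjusted p = 0.0993). Cdc16, a subunit of the anaphase-promoting complex, differed by -0.59 (SE 0.36). Cdkn1b, a cyclin-dependent kinase inhibitor, was above background on 0 of 4 late and 3 of 6 early arrays and was not tested.

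Among the 8 NF-kB and cytokine genes tested, Il17b was past the threshold and lower, and 0 were past it and higher, although 6 of the 8 differences were above 0 (median 0.29). Il6st, the shared signalling receptor of the interleukin-6 family, had 13.51 and 13.41 at E16 and the same 2 values at E18, against 11.86 to 13.51 on the early arrays (median 12.60). All late arrays lay at the top of the early range, a difference of 0.77 (SE 0.27, limma adjusted p = 0.159). Nfkb2, an NF-kB subunit, differed by 0.26 (SE 0.12, limma adjusted p = 0.34), and by -0.07 with array medians.

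Of the 6 keratinocyte markers, 2 were past the threshold, Krt1 and Lor, beside 2.86% of all genes tested, and with the stage as the unit Lor alone was (adjusted p = 0.125 for Krt1). The median difference was -0.44, beside 0.04 over all genes, and 5 of 6 differences were below 0. Krt14 is given above. Krt10, the partner of Krt1, differed by -0.15 (SE 0.14), Krt5, the partner of Krt14, by -0.02 (SE 0.35), and Ivl, another cornified-envelope gene, by 0.29 (SE 0.24), with Ivl above background on 2 of 4 late and 3 of 6 early arrays. The summed level of the 6 markers was 14.46 to 14.99 log2 units on the late arrays and 15.09 to 15.79 on the early arrays, a sum that holds Krt1 and Lor. The other 4 markers summed to 14.15 to 14.65 on the late arrays and 14.42 to 15.43 on the early arrays, which overlapped. Whether other cells carried along with the early kidneys had a part in this was not tested. The list of endothelial markers had 3 genes on the array, Dll4, Notch4 and Figf, of which Figf encodes a growth factor and is a doubtful marker. Their summed level was 14.82 or more on every late array and 14.17 to 14.74 on the early arrays, and 0 of the 3 passed. That sum was mostly Figf: Dll4 and Notch4 together were at 12.51 to 13.34 on the late arrays and 12.33 to 13.30 on the early arrays, which overlapped. The summed level of the 4 blood-cell markers tested was 14.93 to 15.02 on the late arrays and 14.52 to 15.06 on the early arrays, and none of these genes passed. This sum was mostly Lmo2, at a mean of 14.72 in late and 14.64 in early kidney, beside 11.76 and 11.73 for Ptcra. Lmo2 differed by 0.08, Ptcra by 0.03 and Ifng by -0.08, and the signs of Lmo2 and Ptcra turned with array medians. Ifng was above background on 1 of 4 late and 4 of 6 early arrays. Pax5 differed by 0.15 with 1 early array at 7.35, and it was at -0.47 with negative controls subtracted, -0.31 in the deposited ratios, -0.21 with array medians and as low as -0.36 when 1 array was left out.

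The housekeeping genes differed by 0.17 for B2m, 0.14 for Rps27a, 0.01 for Gapdh, 0.00 for Ppia and -0.01 for Hsp90ab1. These are among the brightest spots, whose values quantile normalization holds nearly fixed. With array medians they had a median of -0.35, beside -0.27 for all genes.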

How the data were processed

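The authors deposited 1 whole-number intensity for each spot of an array. Per the labels' protocols, TRIzol-extracted RNA was amplified with a biotin label, and the series' design text names chemiluminescent detection. No source used here names the image software. The deposited intensities held no background column, and the 6 negative-control spots lay well above 0, so they were background-corrected with normexp (offset 50). A deposited table held a ratio per spot, which from the values is the signal minus the lowest spot over the same for Ppia, and its log2 served as an alternative. Gene spots were put on the log2 scale and quantile-normalized over the 10 arrays, and duplicate spots were averaged. Genes above the mean plus 2 SD of the negative controls on every array of at least 1 stage were tested with limma 3.58.1 in R 4.3.3 (2-sided, 1 mean per stage, 6 residual and 1.81 prior degrees of freedom, Benjamini-Hochberg over 105 genes, threshold 0.05). The approach was also run on simulated data with changes of 2 log2 units and spread within a stage only. Those changes exceed the differences of Krt1 and Lor, so the run does not tell how differences of their size are found. An exact test of 2 against 2 stages cannot go below p = 0.333. Precision is limited by how few arrays there are.

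The members and gene lists were chosen with earlier results of these data known. The rule for naming genes takes those past the threshold, the housekeeping genes, every tested Hes, Hey, receptor, ligand, modifier and protease gene, and up to 4 of smallest p in each other list. Pparg, Wnt11, Krt5, Krt10 and genes that were not tested are named beyond that rule, and the values of 2 genes it takes are not reported here, though both stayed in every fit and count. Gene names are the array's, and 115 of 118 accessions matched RefSeq. Promoters matched 86 genes. Alternatives changed the normalization, background, filter, unit, prior and arrays.
The TATA box search, the promoters of genes without overlap and the settings that pair the stage as the unit with another scaling were added after seeing the data.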

Additional observations from a re-analysis of the deposited data

Results flagged for a closer look

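Of 142 sets checked, each a named gene in 1 period, 6 held 1 array far from the others. For independent normal values chance alone gives about 1 in 20 sets (7.1 of 142). Each set pools 2 stages, and quantile normalization gives 1 value to spots of the same rank, so that rate is only a rough guide. Equal values are therefore not equal signals. Among late arrays, the first E16 array stood apart in 3 genes: Hes6 at 14.84 (others 14.66 to 14.68), Ncstn at 14.68 (others all 14.97) and Notch1 at 14.30 (others 14.59 to 14.62). Among early arrays, Gapdh was at 15.32 on the third E12 array (others 15.22 to 15.25), Lfng at 8.77 on the second (others 10.22 to 10.94) and Pax5 at 7.35 on the third (others 9.88 to 10.83). None of the 3 genes past the threshold was among them. In the E14 arrays, which the comparison does not use, Fzd5 was above background on both arrays, at a mean of 1.33 times the threshold (1.21 and 1.45 times), while it was above background on 2 of 4 late and 2 of 6 early arrays and so was not tested.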

How the results depend on the processing

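As reported, 3 genes passed the limma threshold and 8 had arrays that did not overlap. The count past the threshold was 0 with housekeeping scaling, in the deposited ratios, with the replicate block, without E12, without E18 and without the 3 arrays of highest background. It was 1 with no normalization, 5 with a prior that follows the mean signal, 6 with no background correction and 8 with the stage as a random block, whose estimated correlation was negative (-0.13). The 5 genes did not include Krt1 (adjusted p = 0.0933 with that prior). Leaving out 1 array gave 0 to 4 genes, with 0 without E12 replicate 1, E18 replicate 1 or E18 replicate 2 and 1 without E12 replicate 3. In settings chosen after seeing the data, with the stage as the unit, the count was 6 with array medians, 1 each with housekeeping scaling, no normalization and the deposited ratios, and 0 with negative controls subtracted. The unadjusted p was under 0.05 for 14 genes with housekeeping scaling, 14 in the deposited ratios, 18 with the replicate block, 12 without E12, 9 without E18, 11 without the 3 arrays of highest background, 20 without E12 replicate 1, 13 without E18 replicate 1, 18 without E18 replicate 2 and 18 with the stage as the unit and negative controls subtracted. Genes without overlap numbered 5 with housekeeping scaling, 1 with no normalization and 3 in the deposited ratios. They numbered 18 without E13, 17 without E16 and 8 to 12 when 1 array was left out. With arrays left out, fewer have to separate, so these counts are not on the same footing as the 8 reported. The cause of these changes was not tested.

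Of 2549 values of named genes under another setting, 2289 kept their direction and side of the threshold, 51 lost a call, 23 gained one, 0 turned direction with a call and 186 changed sign with no call. Same-numbered late and early arrays correlated in their deviations from the stage means at -0.34 to 0.36. Of these pairs, 2 of 8 were above 0.1, against 8 of 16 pairs of other numbers. Each late stage had 2 arrays, whose deviations mirror each other, so these counts cannot decide whether replicate numbers pair the arrays. Between E12 and E13, which are both early, the 3 same-numbered pairs were at 0.12, 0.15 and 0.22. With the replicate block the adjusted p was 0.0833 for Krt1, 0.0985 for Lor and 0.0833 for Il17b. Array 1 had the highest mean of the negative controls at E13, E14, E16 and E18, and array 2 had it at E12. Spread was larger in dim genes: the median SD within a stage was 0.50 in the dimmest 35 genes, 0.40 in the middle 35 and 0.13 in the brightest 35. Quantile normalization holds the brightest values nearly fixed, and the cause of this gradient was not tested.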

Other observations

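The 2 E14 arrays show where the genes without overlap stood between the periods. With all 12 arrays normalized together, Krt1 was at 12.01 ± 0.11 (SD, n = 2) at E14, beside means of 11.31 in late and 12.08 in early kidney, and Numbl was at 13.53 ± 0.03, beside 13.09 in late and 13.58 in early kidney. Both thus lay nearer the early mean. Lor, at 13.37 ± 0.44, lay above both the late mean of 11.85 and the early mean of 13.26. Il17b, at 10.77 ± 0.53, lay between 9.44 in late and 11.91 in early kidney and was above background on both E14 arrays. Mycl1, at 11.08 ± 0.18, lay nearer the late mean of 10.90 than the early mean of 11.51. Gli3 (13.84, between 13.59 late and 14.10 early), Figf (14.27, between 14.43 and 13.99) and Gbp2 (11.23, between 11.84 and 11.07) also lay between the periods. No test was made of these positions.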
